A study of Bos taurus with 10 samples.

Results

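The cytosines described here are autosomal CG sites at which the methylation level of testis lay far under that of every other bovine tissue measured. A site belonged when it had at least 8 reads in all 10 libraries and its level in testis was at least 25 points below the lowest level of the 9 other tissues. This held for 1312 of 51227 autosomal CG sites covered in all 10 tissues (2.56 %). The rule can only be met where the lowest of the 9 other tissues is itself at 25 % or more, which was the case at 15506 sites, termed sites open to the rule. Of these, 8.46 % belonged. The sites were chosen by the measured levels of testis and the 9 other tissues, so all levels below are a description and nothing was tested on them.

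Reduced representation bisulfite sequencing (RRBS) cuts genomic DNA with the enzyme MspI at CCGG, and bisulfite then converts unmethylated cytosines, so that the share of reads that keep a cytosine is its methylation level. Each tissue was represented by 1 library, from the Hereford cow L1 Dominette and related animals, all without any treatment named. Adult females gave the mammary gland at day 90 of lactation, the nucleated blood cells, the uterus and the skeletal muscle, and an adult male the whole testes. Ileum, abomasum, frontal cortex and mammary gland parenchyma were from juvenile females, and a male fetus gave the rumen. Tissue, sex, stage and animal cannot be told apart for a single library, and levels of gene expression, by which the labelled tissues could be checked, were not analysed here. Whole testes hold germ cells at successive stages together with somatic cells, so a level there is an average over these cells and over the reads of both parental copies.

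In mammals, methyl groups sit mostly on the cytosines of CG pairs, on both strands, and are copied to the new strand after replication by the maintenance methyltransferase DNMT1. Methylation is erased in primordial germ cells and laid down again later in the male germ line, so that germ cells and somatic cells can carry different marks, and some repeats and gene promoters are known to be less methylated in the male germ line than in somatic tissues.

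The sequences of 4 places show what the sites look like. They were put together from the 5 letters that the files give around each cytosine (UMD3.1, forward strand, 5′ to 3′), and 5012771 overlapping letters were compared with 0 conflicts. A capital C marks a testis-low cytosine of the forward strand and a capital G one of the reverse strand. The first and second are the longest runs in which every tested site belonged, the third holds the lowest testis levels among the largest runs, and the fourth, chosen after its values were seen, is the run of at least 3 sites with the lowest testis level.
Run of 22 sites, chr23:49155122-49155173: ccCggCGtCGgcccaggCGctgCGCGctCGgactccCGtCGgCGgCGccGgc
Run of 20 sites, chr22:61124609-61124657: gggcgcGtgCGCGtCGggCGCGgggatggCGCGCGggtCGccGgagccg
Run of 18 sites, chr21:2018565-2018710: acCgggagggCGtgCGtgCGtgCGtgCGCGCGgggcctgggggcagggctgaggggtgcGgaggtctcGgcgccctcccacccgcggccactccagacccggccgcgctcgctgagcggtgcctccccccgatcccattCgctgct
Run of 4 sites, chr11:100220354-100220401: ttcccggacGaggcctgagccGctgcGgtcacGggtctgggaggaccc
The stretches of chromosomes 23 and 22 were 86.5 % and 87.8 % G or C and held 12 and 13 CG pairs in 52 and 49 bases. The chromosome 21 stretch, 78.1 % G or C, has its sites packed in a CG-rich end of alternating letters, with few in the remainder. The chromosome 11 run of 4 carried reverse-strand sites alone, but no forward-strand site inside it was tested.

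At the testis-low sites the mean level was 42.4 % ± 16.4 (SD over 1312 sites) in testis. In the other tissues the SD over the same sites was 10.8 (nucleated blood cells) to 16.0 points (frontal cortex). The mean of the 9 other tissues' means was 86.1 % ± 2.31 (SD of the means, n = 9). The median in testis was 45.3 %. The medians of the other tissues lay between 85.1 % in frontal cortex and 92.7 % in nucleated blood cells, with 89.5 % in rumen, the other male library. The lower quartile of every other tissue was at least 72.0 %, above the upper quartile of testis of 55.8 %. All 9 other tissues were at 80 % or more at 629 of the sites (47.9 %), and there the testis median was 56.3 %. The range between the highest and the lowest of the 9 other tissues had a median of 16.7 points, against 23.4 points at the other sites open to the rule. The distance from testis to the nearest tissue was larger than that range at 1138 sites (86.7 %). The rule asks that even the lowest of the 9 stand at least 25 points above testis, so both values follow in part from it. The quartiles by tissue show testis apart from the rest.

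**Figure D1:**
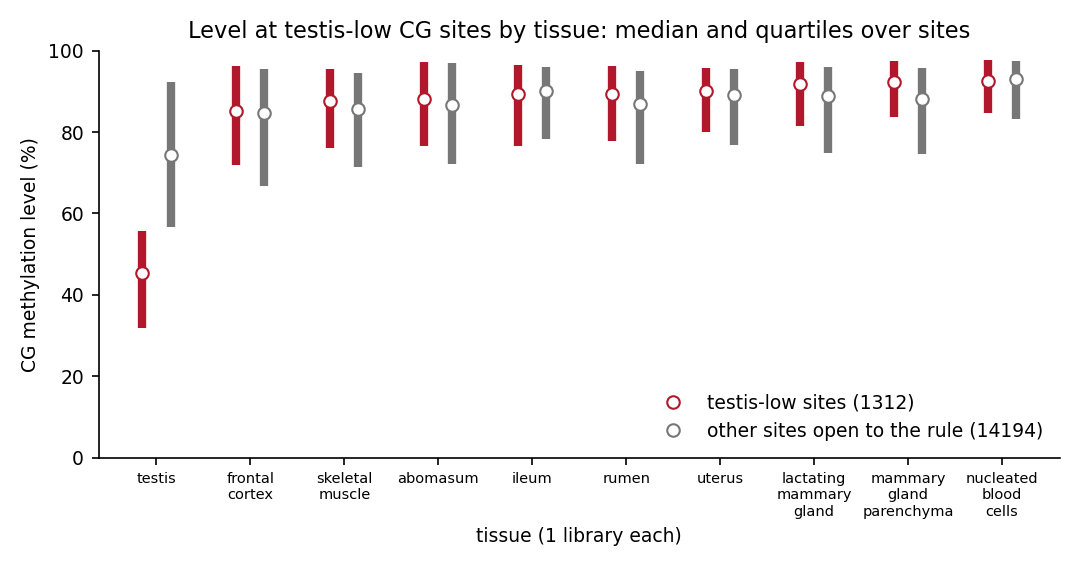
CG methylation level (%) in each tissue (1 library each) at the 1312 testis-low sites and at the 14194 other sites open to the rule, as the median (circle) and the quartiles over sites (bar). The testis bar of the testis-low sites, from 31.8 to 55.8 %, lies below the bars of the 9 other tissues, whose lower quartiles start at 72.0 %.

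The testis level was mostly intermediate. It was between 40 and 60 % at 633 sites (48.2 %) and below 20 % at 161 (12.3 %), and it was 0 at 7. At sites open to the rule, a testis level below 20 % was found at 1.85 %. The distance to the nearest other tissue had a median of 31.3 points and quartiles of 27.6 and 36.7 points, and it was at least 40 points at 206 sites, 50 at 49, 60 at 12 and 70 at 5, with a maximum of 85.5 points. The sites therefore crowd toward the threshold of 25 points. Of the sites just inside it, the one at position 3589479 of chromosome 11 had 65.6 % in testis and 90.6 % in the lowest other tissue, and those at 583246 and 1361452 of chromosome 14 had 25 % against 50 % and 62.5 % against 87.5 %. Just outside were 90640559 of chromosome 12 (26.7 % against 51.6 %), 872263 of chromosome 24 (57.8 % against 82.8 %) and 45622907 of chromosome 17 (57.4 % against 82.4 %).

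**Figure D2:**
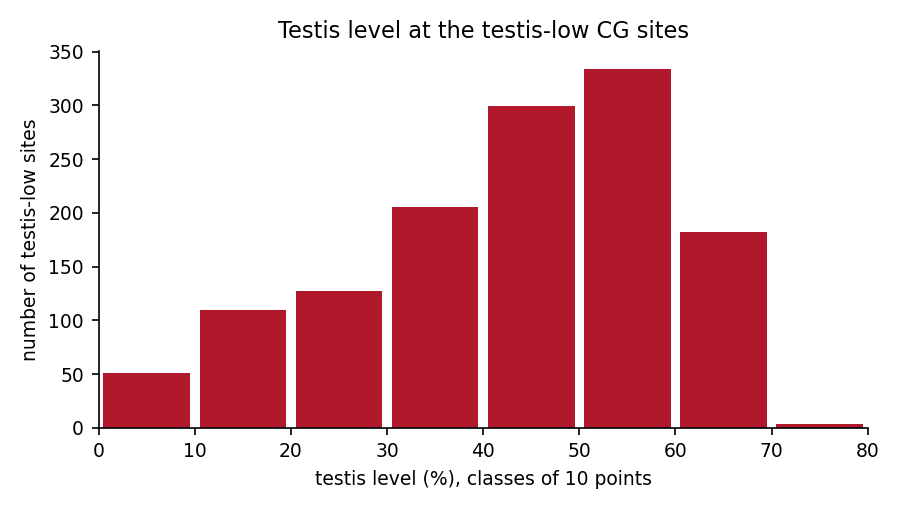
Number of testis-low sites in classes of 10 points of the testis level (%). The fullest class, 50 to 60 %, holds 334 sites, the class below 10 % holds 51, and the class from 70 % up holds 4.

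The same rule was applied to each of the other tissues in turn. Of the same 51227 sites it gave 1 in uterus (0.00195 %), 2 in ileum (0.0039 %), 41 in mammary gland parenchyma (0.08 %), 42 in rumen (0.082 %) and 48 in frontal cortex (0.0937 %). Higher counts were 70 in abomasum (0.137 %), 108 in nucleated blood cells (0.211 %), 109 in skeletal muscle (0.213 %) and 126 in the lactating gland (0.246 %), all well under the count of testis. Over the sites open to the rule for each of these tissues, the shares were 0.00664 % (uterus) to 0.83 % (lactating gland). Each of them also had to lie below testis, itself often the lowest, which lowers these counts. In the opposite direction, testis was the highest tissue by at least 25 points at 77 sites (0.15 %). Testis was the lowest tissue at 7668 of the 15506 sites open to the rule (49.5 %), while each other tissue was the lowest at 2.05 % (nucleated blood cells) to 9.003 % (frontal cortex) of them. Only testis may fall under 25 % at these sites, so this comparison favours testis by construction. Among the 9 others, the tissue nearest to testis was frontal cortex at 343 testis-low sites (26.1 %), against 27.8 % of the other sites open to the rule. Rumen was nearest at 135 (10.3 % against 11.8 %). Ileum was nearest at 189 (14.4 % against 5.36 %), mammary gland parenchyma at 65 (4.95 % against 9.94 %) and the lactating gland at 76 (5.79 % against 9.74 %). Where tissues tied, the one first in the labels was counted.

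Depth limits what single sites show. The median coverage at the testis-low sites was 25 reads in abomasum, 47 in testis and 31 to 44.5 reads in the other tissues. At the minimum of 8 reads, 1 read more or less changes a level by 12.5 points. The 95 % Wilson interval of testis lay below the intervals of all 9 other tissues at 690 testis-low sites (52.6 %). Such a separation was found at 1576 of all 51227 tested sites (3.08 %), so sites outside the group had it too. The rule asks for a gap of 25 points in these same levels and so makes a separation likely. Most tested sites were not open to the rule, so the shares are a description. Intervals cover counting error only and no difference between animals, as each tissue had 1 library. PCR copies were not told apart, so they can be too narrow even for counting error. Coverage of at least 20 reads in every tissue was reached at 441 of the sites.

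Among sites with at least 20 reads in every tissue, the 5 with the largest distances, at most 1 per run, were each below 40 % in testis and above 65 % everywhere else. At position 37639695 of chromosome 27 (forward strand), testis was at 17.5 % (59 of 337 reads, interval 13.8 to 21.9 %) and the 9 others ranged from 75 % in ileum over a median of 86.9 % to 92.0 % in mammary gland parenchyma. At 2018594 of chromosome 21, within the printed run, testis was also at 17.5 % (7 of 40 reads, interval 8.75 to 32.0 %), with the others from 73.0 % over 78.6 % to 95.7 %. At 3523542 of chromosome 7, the site of the group with the highest levels elsewhere, testis was at 37.8 % on 45 reads and the others at 92.2 to 98.6 %. The testis value at 114138381 of chromosome 5 was 12.5 % on only 24 reads, with the others from 65.8 % in abomasum to 93.1 % in nucleated blood cells. At 37616511 of chromosome 27, testis was at 19.2 % on 26 reads and the others at 71.4 to 96.3 %. In none of these sites did the intervals of testis and another tissue overlap, which the choice of the largest distances at this depth makes likely.

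The testis-low sites came in groups. Sites of one autosome at most 200 bp apart formed 537 runs, of which 279 held 1 site, 117 held 2 and 141 held at least 3. The last held 799 sites (60.9 %), and 31 runs of at least 8 held 368. Of the 141 runs, 118 spanned no more than the read length of 49 bp and the median span was 34 bp, so most fit within single reads, and the sites of a run are not independent observations. In 40 of them, every tested site inside the run belonged. The testis median of these runs was 45.1 % and ranged from 0 to 66.7 %, with 68 runs between 40 and 60 % and 15 below 20 %. Single sites had a testis median of 40.2 %, lower than the 48.0 % of sites in runs of at least 3, and a median distance of 29.1 points against 32.5 points.

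In 7 of the 10 largest runs, testis lay between 33.3 and 70.0 % at every testis-low site and the medians of the 9 other tissues were all at least 84.6 %. The run of chromosome 23 printed above had 22 of 22 tested sites in the group, on 12 CG pairs over 48 bp, and testis ranged from 40.0 to 62.7 % while the medians of the 9 others were 97.0 to 100 %. On chromosome 22, all 20 tested sites belonged, with 39.5 to 60.5 % in testis and 96.7 to 100 % elsewhere. On chromosome 25, 20 of 28 tested sites between 30046472 and 30046704 belonged, with 41.8 to 67.9 % in testis and other medians of 97.1 to 100 %. The others of this kind, with 13 or 14 sites each, were on chromosomes 8, 18, 11 and 24. Of the tested sites inside them, 73.7, 93.3, 92.9 and 52 % belonged, in that order.

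The remaining 3 of the 10 had wider ranges of the testis level at their testis-low sites. The chromosome 21 run, 18 of 22 tested sites, was the lowest, with 5.13 to 45.5 % in testis and medians of 77.0 to 92.7 % elsewhere, on a median of 25 testis reads. A run of 22 sites on chromosome 11 between 107284748 and 107285047 held 53 tested sites, of which 41.5 % belonged, and testis ranged from 16.7 to 62.5 % at those that did. A run of 17 sites on chromosome 9, from 65872616 over 664 bp, was a thin scatter, with 19.5 % of 87 tested sites belonging. The profiles of 4 runs show the testis line stepping between 2 levels in the compact runs and mixing with the other tissues in the long one.

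**Figure D3:**
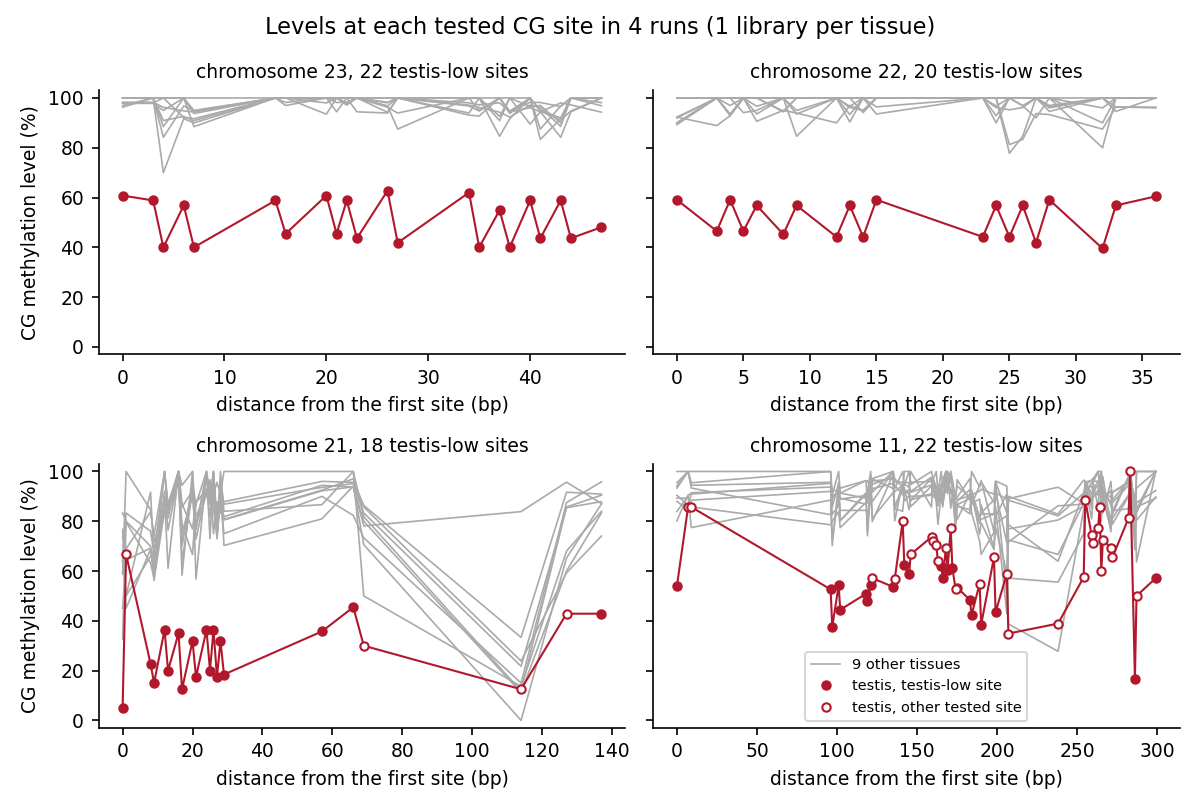
Level (%) of each tested CG site against its distance (bp) from the first site in the runs of chromosomes 23, 22, 21 and 11, with testis in red (filled, testis-low sites, open, other tested sites) and the 9 other tissues in grey (1 library each). On chromosomes 23 and 22 the red points stay between 39.5 and 62.7 %, apart from every grey line, and on chromosome 11 open points rise among the grey lines.

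The steps followed the strand. In the chromosome 23 run, the 11 forward-strand sites had 54.9 to 62.7 % in testis on 50 to 51 reads, and the 11 reverse-strand sites had 40.0 to 48.1 % on 52 to 55 reads. In the chromosome 22 run the order was the opposite, with 39.5 to 46.5 % at 9 forward sites and 56.8 to 60.5 % at 11 reverse sites. Read numbers were thus nearly constant along a strand, and sites this close can lie on the same reads. Over all runs, 134 groups of at least 3 sites of one strand lay within a read length, and the testis level within a group had a median range of 8.89 points. In the 16 runs with such a group on both strands, the strands' medians differed by a median of 7.97 points and at most by 19.4 points, with the forward strand higher in 5 and the reverse strand in 11.

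Each CG pair can be read on both strands, from different molecules. The cytosine on the other strand, here called the strand partner, was tested for 619 of the 1312 sites (47.2 %), against 42.4 % of the sites open to the rule and 50.4 % of all tested sites. Of these partners 240 were testis-low themselves (38.8 %), which make 120 CG pairs with both cytosines in the group, and 379 were not. Among sites with at least 20 reads in every tissue, the share was 24.2 %. Testis was the lowest tissue at 531 of the 619 partners (85.8 %), and the partners' median distance to the nearest other tissue was 20.3 points. Both values include the 240 that meet the rule themselves. Without them, testis was the lowest at 291 of 379 (76.8 %), and the median distance was 12.4 points. At the 379 partners outside the group, the testis median was still 63.4 % against 88.9 % for the others' median, and 152 of them missed the threshold with a distance of at least 15 points. Partners share the contrast that chose the sites, so these values are a description.

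The median absolute difference between a testis-low site and its partner was 14.9 points in testis and between 3.46 points (nucleated blood cells) and 6.67 points (abomasum) in the others. The sites were picked on their own testis level and not on the partner's, so the rule itself widens the difference in testis. At 5959 other sites open to the rule with a tested partner, testis had 7.34 points, within the 4 to 8.61 points of the other tissues. With each CG pair counted once, there were 499 pairs, of which 154 were within 10 points in testis and 109 were more than 30 points apart. Of the sites named above, 2018594 of chromosome 21 had a partner at 36.4 % in testis (8 of 22 reads) and 75 to 100 % elsewhere, which belonged as well. The partner of 114138381 of chromosome 5 was at 50.5 % in testis on 208 reads, 18.8 points below ileum at 69.2 %, and did not belong, while the site itself had stood at 12.5 % on 24 reads. Testis-low sites were on the forward strand in 630 cases (48.0 %) and on the reverse strand in 682. The forward share was 49.7 % of the sites open to the rule and 44.9 % of all tested sites.

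**Figure D4:**
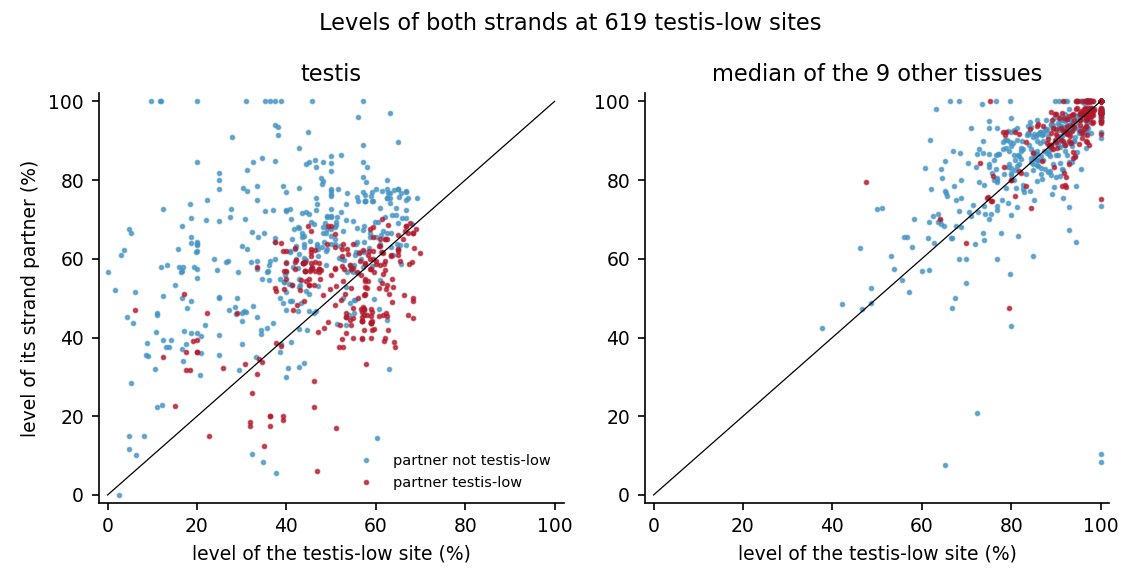
Level of the strand partner (%) against the level of the testis-low site (%), for 619 sites with a tested partner, in testis (left) and as the median of the 9 other tissues (right), with the line of equal levels. In testis most points lie above the line and scatter widely, and on the right they sit near it in the upper corner.

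Levels around the testis-low sites were lower in testis too. Other sites open to the rule at 2 to 50 bp had a testis median of 59.5 % against 85.7 % for the others' median (1883 sites), and testis was the lowest tissue at 78.5 % of them. Over 50 and up to 200 bp these values were 61.1 %, 81.7 % and 62.5 %, over 200 and up to 1000 bp 58.9 %, 77.8 % and 55.0 %, and over 1000 and up to 10000 bp 61.5 %, 82.6 % and 62.4 %. Beyond 10000 bp, at 8540 sites, they were 87.5 %, 91.7 % and 29.4 %. Testis was thus lowest at over 50 % of the neighbours in each class up to 10000 bp, with the lowest share from 200 to 1000 bp, and at a minority beyond. Over all sites open to the rule, the testis-low sites included, the share was 49.5 %. Of the 279 sites alone in a run, 245 had neighbours open to the rule within 50 bp, strand partners aside, and testis was below the nearest other tissue on the median over those neighbours in 207 cases (84.5 %), by a median of 9.16 points. Neighbours this close can lie on the same reads as the testis-low site. They share the contrast that chose it, so these values are a description. Non-CG cytosines within the runs of at least 3 (2038 of them) had a mean level of 1.12 % in testis and 1.25 to 1.58 % in the other tissues.

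All 29 autosomes held testis-low sites, between 10 and 84 each. The share of tested sites that belonged was highest on chromosomes 27 (5.97 %, 62 sites), 9 (4.50 %, 75 sites) and 24 (4.39 %, 55 sites), and lowest on chromosomes 15 (0.864 %, 10 sites), 17 (1.33 %, 25 sites) and 5 (1.43 %, 31 sites), set against 2.56 % overall. On the same chromosomes the shares of sites open to the rule were 13.4, 12.2, 17.4, 3.09, 4.40 and 7.03 %. A few runs make up much of a chromosome's count. On chromosome 9, 1 run holds 17 of the 75 sites.

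Each autosome was divided into 10 parts of equal length. The first part held 19.97 % of the testis-low sites and the last 24.4 %, where 13.1 % and 36.4 % of the sites open to the rule and 11.03 % and 28.1 % of all tested sites lay. Of the sites open to the rule 12.9 % belonged in the first part and 5.67 % in the last, and the parts between had 6.91 to 12.5 %. When only sites whose surrounding letters occurred once were counted, the last part held 37.0 % of the testis-low sites and 50.2 % of those open to the rule, so the order of the shares was the same. Bovine autosomes are acrocentric, and the numbering starts at the centromere end.

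**Figure D5:**
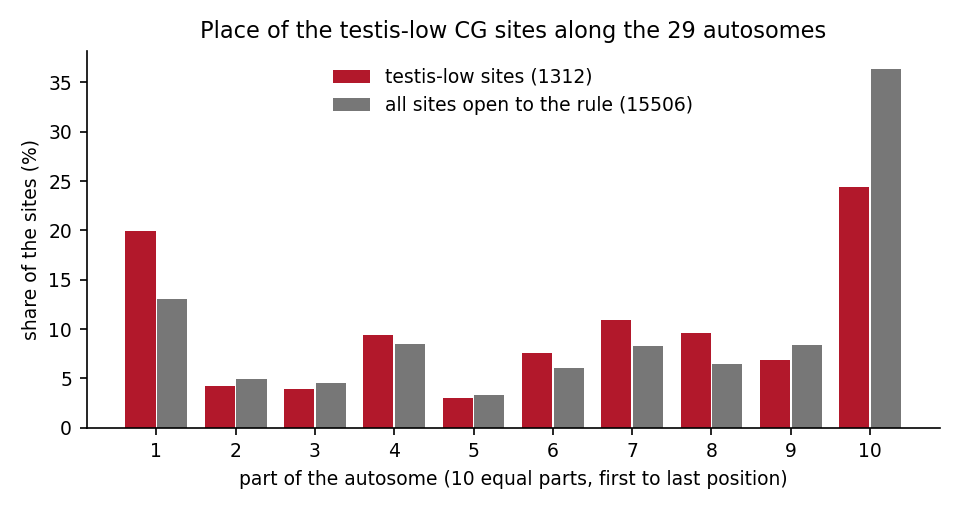
Share (%) of the 1312 testis-low sites and of all 15506 sites open to the rule in each of 10 equal parts of an autosome, from its first position to the last position covered. The first part holds 19.97 % of the testis-low sites and 13.1 % of the sites open to the rule, and the last holds 24.4 % and 36.4 %.

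Many of the sites lay in repeated sequence. For 846 of them, 22 letters around the CG could be put together, and for 300 (35.5 %) the same 22 letters occurred at 2 or more places, against 26.1 % of the other sites open to the rule and 9.48 % of tested sites. Of the sites open to the rule, 12.3 % of the repeated and 8.29 % of the once-occurring ones belonged. The repeated testis-low sites had a testis median of 37.0 %, and those occurring once had 50 %, with others' medians of 83.2 % and 94.3 %. A level under 20 % in testis was found at 18.3 % of the repeated and 7.14 % of the other sites. Abomasum, elsewhere the shallowest library, had a median of 58.5 reads at the repeated sites and 17 at those occurring once. Only uniquely mapped reads were kept in the files, and how reads of repeats were placed was not tested.

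The windows that supplied the most testis-low sites, listed after their values were seen, were these, with the CG in capitals.
Window found at 173 places: acattccagaCGtggcctcgtg
Window found at 210 places: gctcgacaagCGgcctctctcc
Window found at 97 places: gacacctctcCGaactccagcc
The first stood at 144 sites open to the rule, 16 of them testis-low on 11 autosomes, with a testis median of 21.5 % and a range of 11.5 to 38.9 %, and an others' median of 69.7 %. At the open sites of that window outside the group, testis was at 46.6 % and the others at 68.8 %, and testis was the lowest tissue at 108 of the 144. The second gave 13 testis-low sites of 71 open to the rule, with a testis median of 37.1 % against 83.3 %, and the third 12 of 41, with 31.3 % against 82.7 %. None of the windows could be assigned to a repeat family, since no annotation of UMD3.1 was used here.

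Several stretches held scattered testis-low sites rather than compact runs. Joined over 10000 bp, the sites made 368 clusters, of which 90 held 2 or more runs. The cluster with the most runs, on chromosome 29 from 19401705 to 19446167, held 22 testis-low sites in 15 runs among 270 sites open to the rule (8.15 %, not above the 8.46 % of all open sites), with a testis median of 33.6 % and others' median of 76.8 %. On chromosome 13 from 48993167 to 49018372, 23 of 187 open sites (12.3 %) stood in 12 runs, with a testis median of 38.2 % and others' median of 75.1 %, and 12 of its 18 sites with a window were repeated. Clusters of 8 and 7 runs on chromosomes 4 and 3 held 20 of 115 (17.4 %) and 16 of 180 open sites (8.89 %), with testis medians of 38.8 % and 33.1 %. These places were chosen after their values were seen.

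The lowest runs of at least 3 sites were short. At the 4 sites of the chromosome 11 run printed above, testis had 0, 0, 1 and 0 methylated reads of 22 each, and the other tissues' medians were 88.0 to 100 %, on 8 to 37 reads per site. On chromosome 19, a run of 5 forward-strand sites near the chromosome start, from 14086 to 14127, had 60.4 % in testis at its first site on 53 reads and 2.70, 1.49, 0.704 and 0.352 % at the next 4 on 284 to 335 reads. The medians of the other tissues there were 35.9 % (skeletal muscle) to 74.5 % (nucleated blood cells). On chromosome 9, 3 sites between 53550449 and 53550461 had 3.06 to 5.15 % in testis on a median of 98 reads and medians of 37.5 to 77.3 % elsewhere.

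The study's list of 836 CG islands that differed between these tissues overlapped 924 of the testis-low sites (70.4 %), in 220 islands, against 42.0 % of the other sites open to the rule. The list was drawn up from these same samples and is not independent of the rule. Transcript names were taken only for islands whose methylation the paper found significantly correlated with gene expression. Other islands that overlap genes are therefore left without a name here. Among the 339 runs in islands of the list, 16 lay in islands with such a name, of 12 Ensembl transcripts. The share of all listed islands with such a name was not set beside this count. It therefore does not show a tie to expression particular to the testis-low runs. Of these 16 runs, 6 had at least 3 sites. The largest was a run of 12 reverse-strand sites of chromosome 2 (100307093 to 100307131, island of transcript ENSBTAT00000006897), with 38 to 53.1 % in testis and 88.2 % as the lowest of the other tissues' medians. A run of 11 on chromosome 5 (120779650 to 120779695, island of ENSBTAT00000019952) had 55.8 to 64.9 % in testis and 95.3 % as that lowest median. By the letters at the cytosine, 10.5 % of the testis-low sites lay in the cutting site CCGG, against 17.4 % of the other sites open to the rule, and 20.8 % followed a T against 17.7 %.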

How the data were processed

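RRBS libraries of 10 bovine tissues (1 each) were analysed. The authors aligned 49-bp paired-end reads to UMD3.1 (as their processing notes also list) with a SOAPaligner-based pipeline, uniquely mapped reads alone were retained, and removal of PCR copies is not stated. For every cytosine with at least 8 reads they deposited the number of reads as a count, without normalization, and the methylation level as a fraction of reads. A further read number, a p-value and its FDR, also deposited for each cytosine, were not used. Methylated reads were taken as level times reads. Testis-low sites were found by the rule on autosomal CG sites with at least 8 reads in all 10 libraries, and runs joined sites at most 200 bp apart. Median coverage of the tested sites was 12 reads in abomasum and 32 to 50 in the other libraries. Named were the 10 runs with the most sites, the 5 sites with the largest distances at 20 or more reads in every tissue, 3 sites on either side of the threshold, the strand partners of named sites, and the 3 autosomes with the highest and the 3 with the lowest share. Others were named after their values were seen. The sites, lists and alternatives were chosen with earlier results of these data known. Intervals are 95 % Wilson intervals. The rule was tested on simulated data. Python 3.11.15, NumPy 2.4.6, pandas 2.3.3, SciPy 1.17.1 and matplotlib 3.10.9 were used. A list of germ-line genes could not be placed, since no annotation of UMD3.1 was used here. Alternatives tried were higher read minimums, a larger gap, summed strands, other run distances, other sets of sites and leaving out each of the 9 other tissues.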

Additional observations from a re-analysis of the deposited data

Results flagged for a closer look

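Outside the autosomes, which the report did not use, CG sites of the same kind were found. On the X chromosome, 27 of 1050 CG sites covered in all 10 tissues were at least 25 points lower in testis than in every other tissue, where the same rule gave 0 or 1 site for each other tissue, 0 for rumen, the other male library. In the sequence named chr_defined, 35 of 723 sites were lower in testis, with 8 in the lactating mammary gland and 0 to 2 in each other tissue.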

How the results depend on the processing

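The number of sites depended on coverage and on the threshold. Requiring 20 reads left 441 sites in 220 runs, of 7147 tested, so the share that belonged was higher (6.17 % against 2.56 % of tested sites, and 9.84 % against 8.46 % of sites open to the rule). A gap of 40 points left 206 sites in 97 runs, summing both strands at 12912 CG pairs 286 sites in 119 runs, and, added after seeing the data, windows occurring once 546 sites in 221 runs. The share in runs of at least 3, 60.9 % as reported, was 48.3 % at 20 reads and 55.8 % at 40 points. The share of partners that belonged, 38.8 %, was 24.2 % at 20 reads, 15.5 % at 40 points and 44.0 % for windows occurring once. The share in the last 10 % of a chromosome, 24.4 %, was 18.6 % at 20 reads, 29.1 % at 40 points, 33.9 % with summed strands and 37.0 % for windows occurring once. Leaving out each other tissue in turn gave 1328 to 1679 sites (the most without frontal cortex), 547 to 687 runs, 60.4 to 64.4 % in runs, 38.2 to 41.6 % of partners and 21.3 to 25.4 % in that last 10 %, with a median testis level of 45.1 to 45.6 % and a median gap of 31.3 to 31.8 points. A minimum of 10 reads, adding X and chr_defined, leaving out the most covered sites and run distances of 100 and 1000 bp moved no count by 1.5 times and no share beyond the 95 % Wilson interval of the reported one. The median testis level, 45.3 %, was 35.7 % at a gap of 40 points and 51.7 % with summed strands. Both lie within the counting interval of a single site at the median depth, which does not measure the uncertainty of a median over many sites. Fewer sites tested follow from the read minimum and the strands by construction. A larger gap can only keep some of the sites, and leaving out a tissue can only add to them. The cause of the other changes was not tested. No paired analysis was possible because each tissue has 1 library. Depth limits single levels most in abomasum.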
